A study of Homo sapiens with 6 samples.

Results

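NEAT1 and MALAT1 are abundant long non-coding RNAs of the nucleus, and SFPQ, NONO, PSPC1 and RBM14 are core proteins of the paraspeckle, the nuclear body that NEAT1 builds. The 6 genes were taken by name from the 28395 gene IDs of the deposited count tables, and the rule that picked them used names, not measured values. All 6 passed the filter on low counts and were among the 13767 genes tested. HCT116 cells were given 50 nM TR-107 for 24 h (3 libraries) or the vehicle, 0.1% DMSO, for 24 h (3 libraries). HCT116 is an established human colorectal cancer line, so both groups come from 1 line. TR-107 activates ClpP, a protease inside mitochondria, and the study asked how the transcriptome of these cells responds to it. Poly(A)-enriched RNA was sequenced.

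Libraries held 17264039 to 22243758 gene counts in TR-107 and 18344471 to 23708135 in DMSO. The design text describes replicates as biological without saying how cultures were kept apart, so each p-value reflects only the variation among these samples. Of 6 colorectal epithelial markers, 5 were tested, and their summed level was 5639 to 5774 CPM (counts scaled to a common library size) in TR-107 and 5135 to 5178 CPM in DMSO, while VIL1 had 0 or 1 count per library. Markers of leukocytes, macrophages, endothelium, fibroblasts and hepatocytes summed to 26.5 to 31.3 CPM in TR-107 and 18.5 to 21.2 CPM in DMSO. CD68 was higher in TR-107, at 11.8 CPM against 5.57 CPM in DMSO (edgeR adjusted p = 1.22e-06). COL1A1 had 17.2 CPM in TR-107 and 14.3 CPM in DMSO (adjusted p = 0.066). PTPRC and COL3A1 had 0 counts in all 6 libraries. Mitochondrially encoded genes held 4.62% to 4.99% of the counts in TR-107 and 3.56% to 3.92% in DMSO. With scaling factors made without these genes, the log2 fold change was 1.12 for NEAT1 and 1.21 for MALAT1, as with all genes. Any further part of this difference in the results below was not tested.

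A paraspeckle forms on NEAT1 while that RNA is being made. The gene gives a short form that ends at a poly(A) signal and a long form that reads through it, and only the long form can hold a paraspeckle together. SFPQ, NONO and PSPC1 are the 3 human members of the DBHS family, RNA-binding proteins that pair with each other and coat NEAT1, and RBM14 is a protein with a prion-like domain that is needed for the assembled body. MALAT1 lies next to NEAT1 in the genome but gathers in a different body, the nuclear speckle, which stores splicing factors. Human cells are known to make more NEAT1 under several kinds of stress, and paraspeckles are known to hold back certain proteins and RNAs in the nucleus.

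The sequences that separate the forms of NEAT1 and that end NEAT1 and MALAT1 are shown because they decide which of these RNAs carry a poly(A) tail, on which the libraries depended. All were read from GRCh38 with GENCODE v29 transcripts, on the plus strand of chromosome 11, 5′ to 3′. The first window holds the poly(A) signal of the short form (AATAAA in capitals, at base 3706 of the 22743 bases of the long transcript) with the 130 bases before it. TGTA, written in capitals, is the motif (UGUA in RNA) that the cleavage factor Im binds, and 3 copies lie in those 130 bases, with a 4th after the signal.
NEAT1 end of the short form, chr11:65426373-65426552: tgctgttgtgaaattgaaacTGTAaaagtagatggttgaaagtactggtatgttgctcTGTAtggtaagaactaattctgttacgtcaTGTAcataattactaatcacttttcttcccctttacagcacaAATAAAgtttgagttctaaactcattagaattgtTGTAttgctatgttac

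The long form of NEAT1 and the mature MALAT1 have no poly(A) tail in human cells. Each is released by RNase P, which clips off a tRNA-like piece, and each end is guarded by a triple helix of U-rich and A-rich runs. The U-rich runs (written with T) and the A-rich run at the very end are in capitals below, and both 130-base windows carry 2 U-rich runs followed by 1 A-rich run.
NEAT1 end of the long form, chr11:65445411-65445540: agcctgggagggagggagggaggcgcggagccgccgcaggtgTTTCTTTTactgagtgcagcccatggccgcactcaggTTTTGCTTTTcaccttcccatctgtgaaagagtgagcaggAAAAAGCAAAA
MALAT1 end before the tRNA-like piece, chr11:65505987-65506116: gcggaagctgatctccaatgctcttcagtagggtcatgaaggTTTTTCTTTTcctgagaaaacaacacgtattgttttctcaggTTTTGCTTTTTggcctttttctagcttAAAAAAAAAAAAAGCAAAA
A poly(A) step can keep such RNAs through the A-rich run or lose them, so the levels of the long NEAT1 form and of MALAT1 below are those left after that step. The gene counts do not separate the short form of NEAT1 from the long one.

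After TR-107, both nuclear RNAs were higher than in DMSO and all 4 core paraspeckle proteins were lower at the mRNA level. NEAT1 rose 2.18-fold and MALAT1 2.31-fold, while RBM14 fell 2.39-fold, PSPC1 1.7-fold, SFPQ 1.57-fold and NONO 1.12-fold. The response of these cells was broad: edgeR's quasi-likelihood test called 57.8% of all genes tested at an adjusted p of 0.05, 29.2% as higher and 28.6% as lower. Groups that did not overlap were as common: 31.5% of genes had every TR-107 library above every DMSO library, and 30.9% had every one below. A call alone therefore does not set these genes apart, and their sizes and spreads are given below. In bulk libraries, a changed level in every cell and a changed share of cells that hold the RNA cannot be told apart. Protein and paraspeckle numbers were not measured.

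**Figure D1:**
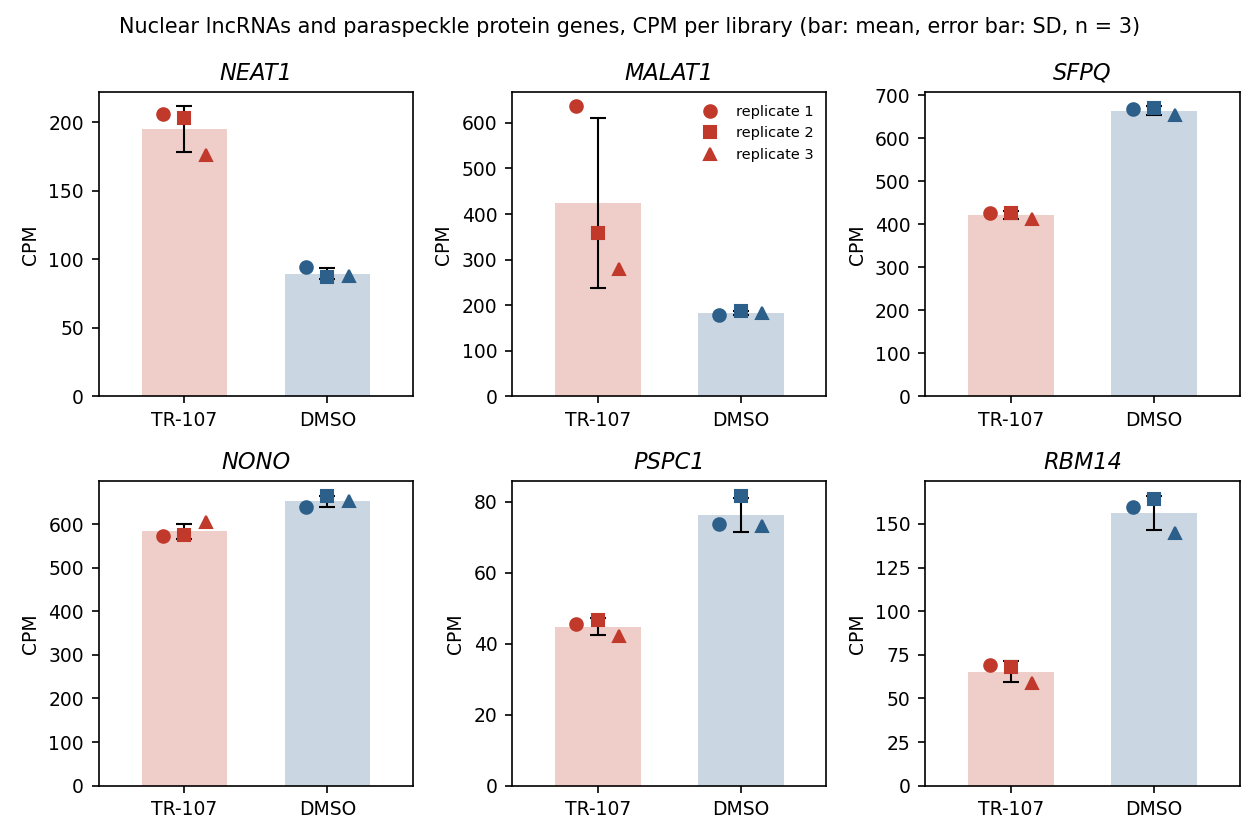
Level of each of the 6 genes in each library, in CPM scaled by TMM, for TR-107 (left) and DMSO (right), with points for single libraries and bars for the group mean ± SD (n = 3 each). For NEAT1 and MALAT1 every TR-107 point lies above every DMSO point, for the 4 proteins every TR-107 point lies below, and the MALAT1 points of TR-107 spread from 280.3 to 636 CPM.

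NEAT1, with its short and long forms counted together, had 206, 203 and 176 CPM in TR-107 replicates 1, 2 and 3. It had 94.1, 86.8 and 87.5 CPM in DMSO replicates 1, 2 and 3. The lowest TR-107 library was far above the highest DMSO library, and replicates lay close together in both groups. The means were 195 ± 16.3 CPM in TR-107 and 89.5 ± 3.98 CPM in DMSO (SD, n = 3 each), and edgeR gave a log2 fold change of 1.12 ± 0.05 SE with an adjusted p of 9.88e-21. This put NEAT1 at the 94.1st percentile of the fold changes of all genes tested. Its raw counts were 3525 to 3780 in TR-107 and 1758 to 2117 in DMSO. NEAT1 (gene ID 283131) spans chr11:65422798-65445540 in GRCh38.p14. The miRNA gene MIR612, which lies inside the long-only part of NEAT1, had at most 23 counts of its own in a library.

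MALAT1, the speckle RNA, had 636, 358 and 280.3 CPM in TR-107 replicates 1, 2 and 3, against 179, 188 and 183 CPM in DMSO replicates 1, 2 and 3. The TR-107 libraries were all above the DMSO libraries but far apart from each other, with a coefficient of variation of 44% in TR-107 and 2.46% in DMSO. The means were 425 ± 187 CPM in TR-107 and 183 ± 4.25 CPM in DMSO (SD, n = 3 each), and edgeR gave a log2 fold change of 1.21 ± 0.36 SE with an adjusted p of 0.0446. Without TR-107 replicate 1 the log2 fold change was 0.80 (edgeR adjusted p = 0.000345), and the call was lost when TR-107 replicate 2 or any 1 of the DMSO replicates was left out (adjusted p of 0.0831 to 0.134). MALAT1 (gene ID 378938) spans chr11:65497738-65506516 and overlaps its antisense RNA TALAM1 and the tRNA-like RNA MASCRNA, which were not analysed here. The strand setting of the counting is not given in the sources used here, so reads of TALAM1 and MALAT1 cannot be told apart.

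The high MALAT1 value of TR-107 replicate 1 was unusual among genes of that library. Its log2 CPM lay 1.01 above the mean of the other 2 TR-107 libraries, the 10th highest deviation among the 10549 genes averaging 5 CPM or more, where the SD over genes was 0.186. In TR-107 replicate 3 it lay 0.77 below the mean of the other 2 TR-107 libraries, the 39th lowest deviation, but that mean includes the high replicate 1. NEAT1 deviated by 0.13 in TR-107 replicate 1, well within the spread of other genes. RN7SK, a nuclear RNA without a poly(A) tail, had 11.5, 3.45 and 6.1 CPM in TR-107 replicates 1, 2 and 3, against 6.47, 10.4 and 6.16 CPM in DMSO replicates 1, 2 and 3, and so was also highest in TR-107 replicate 1 among the TR-107 libraries. RN7SK did not pass the test (edgeR adjusted p = 0.839), but without TR-107 replicate 1 it was called lower (log2 fold change -0.67, adjusted p = 0.0229). RN7SL1, the RNA of the signal recognition particle, averaged 69.4 ± 7.61 CPM in TR-107 and 124 ± 19.8 CPM in DMSO (SD, n = 3 each), and was called lower (edgeR adjusted p = 0.00534). Of 4 such RNAs tested (RN7SK, RN7SL1, its near-identical copy RN7SL2 and RMRP), 0 were called higher and 2 lower, against 29.2% and 28.6% of all genes tested. The part of the poly(A) step in the MALAT1 values was not tested.

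Set against each other within a library, NEAT1 and MALAT1 kept no fixed ratio in TR-107. The log2 ratio of NEAT1 to MALAT1 counts was -1.63, -0.82 and -0.67 in TR-107 replicates 1, 2 and 3, against -0.93, -1.11 and -1.07 in DMSO replicates 1, 2 and 3. The group means differed by 0.00 in log2 units and the TR-107 values lay on both sides of the DMSO values (exact two-sided permutation p = 1, adjusted p = 1 over 5 within-library measures). With 3 libraries in each group, that test cannot go below 0.1. NEAT1 took 0.0191% ± 0.00182 of gene counts in TR-107 and 0.00914% ± 0.000383 in DMSO (SD, n = 3 each), and MALAT1 took 0.0417% ± 0.019 in TR-107 and 0.0187% ± 0.000503 in DMSO. Both shares gave an exact permutation p of 0.1, the smallest possible, and an adjusted p of 0.125.

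Among the DBHS proteins, SFPQ also acts in splicing and in transcription. Its mRNA had 427, 427 and 412 CPM in TR-107 replicates 1, 2 and 3, against 668, 671 and 653 CPM in DMSO replicates 1, 2 and 3. The groups were far apart and the replicates nearly equal. The means were 422 ± 8.69 CPM in TR-107 and 664 ± 9.37 CPM in DMSO (SD, n = 3 each), and edgeR gave a log2 fold change of -0.66 ± 0.04 SE with an adjusted p of 5.9e-19. SFPQ (gene ID 6421) lies at chr1:35176380-35193145 and overlaps no other annotated gene.

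NONO, the usual partner of SFPQ in this family, changed least of the 6 genes. It had 573, 574 and 604 CPM in TR-107 replicates 1, 2 and 3, against 639, 665 and 652 CPM in DMSO replicates 1, 2 and 3. The groups did not overlap, but the highest TR-107 library came near the lowest DMSO library. The means were 584 ± 17.6 CPM in TR-107 and 652 ± 13.3 CPM in DMSO (SD, n = 3 each), and edgeR gave a log2 fold change of -0.16 ± 0.04 SE with an adjusted p of 0.000351. NONO (gene ID 4841) lies at chrX:71283635-71301168 and overlaps no other annotated gene.

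PSPC1 is the family member named after paraspeckles. It had 45.5, 46.7 and 42.3 CPM in TR-107 replicates 1, 2 and 3, against 73.6, 81.7 and 73.3 CPM in DMSO replicates 1, 2 and 3. Every TR-107 library was well below every DMSO library. The means were 44.8 ± 2.26 CPM in TR-107 and 76.2 ± 4.76 CPM in DMSO (SD, n = 3 each), and edgeR gave a log2 fold change of -0.77 ± 0.07 SE with an adjusted p of 5.96e-13, at the 7.53rd percentile of all genes tested. PSPC1 (gene ID 55269) lies at chr13:19671205-19782945 and shares its end with MPHOSPH8. That gene had 1233, 1244 and 1517 raw counts in TR-107 replicates 1, 2 and 3, against 1226, 1287 and 1521 in DMSO replicates 1, 2 and 3. These counts are not scaled to library size. The TMM-scaled sizes were 17116614, 18250771 and 21459980 in TR-107 replicates 1, 2 and 3. In DMSO replicates 1, 2 and 3 they were 18690737, 22882220 and 24183259. Relative to these sizes, MPHOSPH8 lay higher in every TR-107 library than in every DMSO library, unlike PSPC1. No test of MPHOSPH8 is given here.

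RBM14, which joins paraspeckle subunits into a whole body and is also a transcription coactivator, fell furthest. It had 69.2, 68.2 and 58.6 CPM in TR-107 replicates 1, 2 and 3, against 159.6, 164 and 145 CPM in DMSO replicates 1, 2 and 3. No TR-107 library came near a DMSO library. The means were 65.3 ± 5.84 CPM in TR-107 and 156 ± 10.4 CPM in DMSO (SD, n = 3 each), and edgeR gave a log2 fold change of -1.26 ± 0.06 SE with an adjusted p of 1.89e-20, at the 2.46th percentile of all genes tested. RBM14 (gene ID 10432) lies at chr11:66616630-66629934 and shares its first part with the readthrough gene RBM14-RBM4, which had 0 counts in all 6 libraries, so how reads of their shared exons were assigned is uncertain.

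The balance within the set moved with these changes. The log2 ratio of SFPQ to NONO counts was -0.43, -0.43 and -0.55 in TR-107 replicates 1, 2 and 3, against 0.06, 0.01 and 0.00 in DMSO replicates 1, 2 and 3. The ratio in TR-107 was thus 0.709 times that in DMSO, where the counts of both genes were nearly equal. The log2 ratio of NEAT1 to the summed counts of SFPQ, NONO and PSPC1 was -2.34, -2.37 and -2.59 in TR-107 replicates 1, 2 and 3, against -3.88, -4.03 and -3.98 in DMSO replicates 1, 2 and 3. That ratio of NEAT1, with its short and long forms counted together, to protein mRNA was 2.88 times as high in TR-107, with no overlap. Both differences reached the exact two-sided permutation p of 0.1 that 3 against 3 libraries allow (adjusted p = 0.125 each).

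Levels can be compared between genes only per length. Over all annotated exons, NONO was the most abundant, at 110.3 ± 3.33 CPM per kb in TR-107 and 123 ± 2.46 in DMSO, followed by SFPQ at 56.8 ± 1.17 CPM per kb in TR-107 and 89.4 ± 1.3 in DMSO (SD, n = 3 each). MALAT1 came next in TR-107, with 31.7 to 72 CPM per kb, a range that holds the SFPQ range of 55.5 to 57.5. In DMSO it stood at 20.3 to 21.3 CPM per kb, below RBM14, which had 14.9 to 17.6 CPM per kb in TR-107 and 36.8 to 41.7 in DMSO. MALAT1 and RBM14 therefore swapped places in the order. PSPC1 had 8.78 to 9.69 CPM per kb in TR-107 and 15.2 to 17 in DMSO. NEAT1 had 7.73 to 9.05 CPM per kb in TR-107, overlapping PSPC1, and 3.81 to 4.13 in DMSO, where it was lowest. The place of NEAT1 depends on its form: over the 3740 bases spanned by the short transcripts it would have 47.1 to 55.1 CPM per kb in TR-107 and 23.2 to 25.2 in DMSO.

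**Figure D2:**
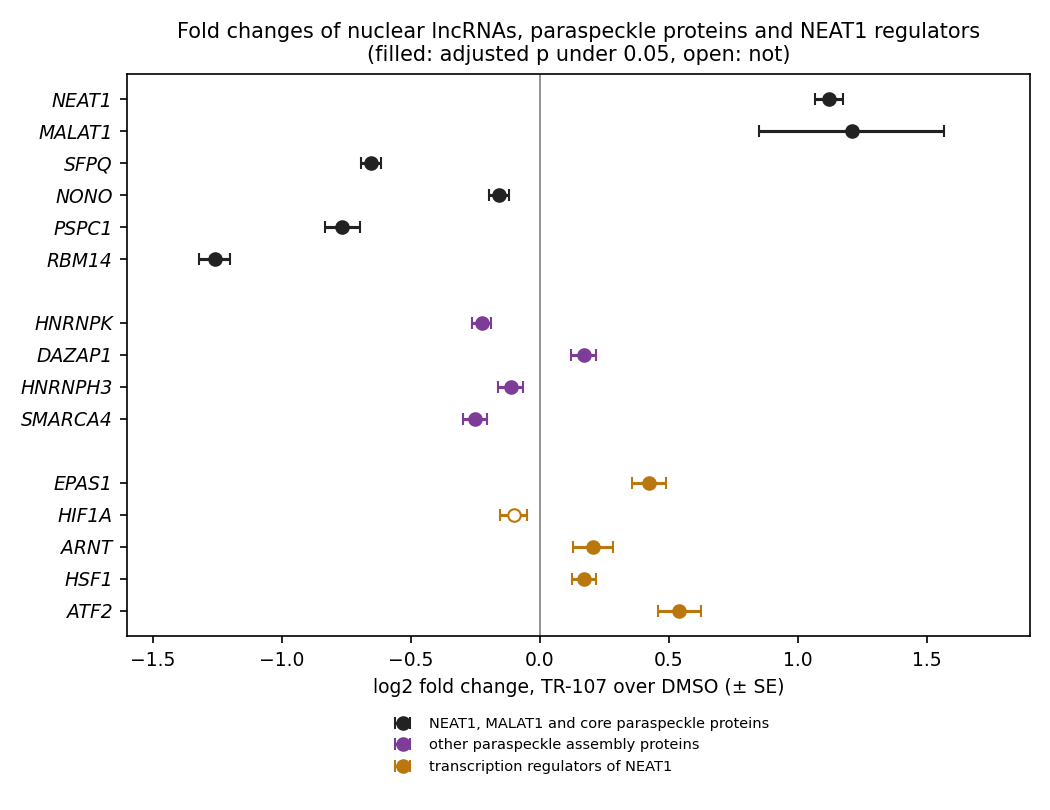
Log2 fold change, TR-107 over DMSO, with its standard error from the edgeR fit, for the 6 genes, 4 other paraspeckle assembly proteins and 5 regulators of NEAT1, with filled points for called genes. NEAT1 and MALAT1 lie above 1, RBM14 lies lowest at -1.26, and the MALAT1 error bar is the widest.

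Other proteins that a paraspeckle needs moved less evenly. Of 5 further proteins required for assembly, 4 fell and 1 rose (median log2 fold change -0.23). Over all genes tested the median was 0.01, with 29.2% called higher and 28.6% lower. HNRNPK, which in human cells favours the long form of NEAT1 by hindering the cleavage factor Im, averaged 808 ± 27.5 CPM in TR-107 and 945 ± 11.8 CPM in DMSO (SD, n = 3 each; edgeR adjusted p = 1.1e-06). SMARCA4, an ATPase of chromatin remodelling complexes, had a log2 fold change of -0.25 (adjusted p = 1.26e-05). HNRNPH3, a splicing regulator, had -0.11 (adjusted p = 0.0405), a call lost with upper-quartile scaling and without TR-107 replicate 2 or 3 or DMSO replicate 1 or 3. DAZAP1, another RNA-binding protein, had 0.17 (adjusted p = 0.00271), although its groups overlapped.

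Of 33 other proteins reported in paraspeckles, 31 were tested, and 7 rose, 17 fell and 7 did not pass the test (median log2 fold change -0.16), beside 29.2% of all genes tested called higher and 28.6% lower. FIGN had 0 counts in all libraries, and TAF15 had 0 to 2. The largest falls were those of RBM12 (105 ± 5.12 CPM in TR-107 and 188 ± 0.481 CPM in DMSO), UBAP2L (190.4 ± 5.93 CPM in TR-107 and 298 ± 10.3 CPM in DMSO) and FAM98A (62.1 ± 4.19 CPM in TR-107 and 97.4 ± 3.93 CPM in DMSO). The largest rises were those of ZC3H6 (14.4 ± 2.29 CPM in TR-107 and 5.2 ± 0.734 CPM in DMSO), PCED1A (18.3 ± 1.79 CPM in TR-107 and 11.7 ± 1.51 CPM in DMSO) and the cold-inducible RNA-binding protein CIRBP (182 ± 6.86 CPM in TR-107 and 126 ± 4.21 CPM in DMSO).

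The same list holds the subunits of the cleavage factor Im, the complex that reads the UGUA motifs printed above and in human cells favours the short form. NUDT21, the subunit that binds UGUA, averaged 209 ± 4.76 CPM in TR-107 and 283 ± 9.32 CPM in DMSO (SD, n = 3 each), a log2 fold change of -0.44 (edgeR adjusted p = 6.78e-12). CPSF6, its larger partner, averaged 103 ± 2.86 CPM in TR-107 and 162 ± 2.73 CPM in DMSO, a log2 fold change of -0.64 (adjusted p = 3.61e-15). CPSF7, the alternative partner, averaged 153 ± 3.64 CPM in TR-107 and 149.8 ± 4.38 CPM in DMSO and did not pass the test (adjusted p = 0.588). Which form of NEAT1 these cells made cannot be read from the gene counts.

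**Figure D3:**
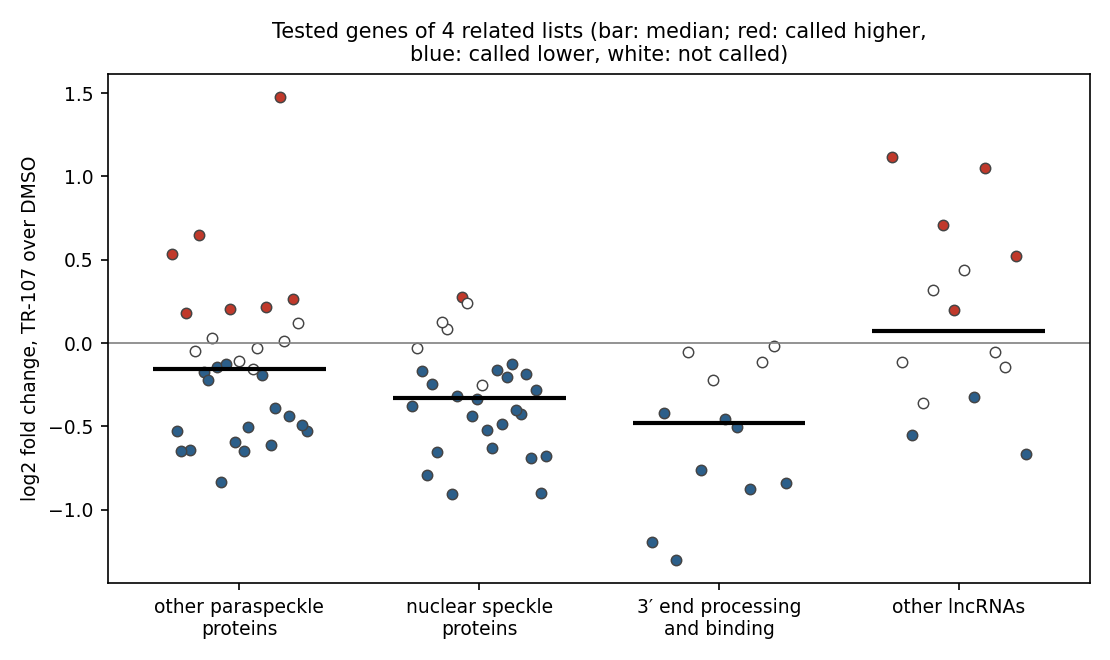
Log2 fold change, TR-107 over DMSO, of each tested gene of 4 lists (1 column of points per list, red for called higher, blue for called lower, white for not called), with a bar at the list's median. The nuclear speckle and end-processing lists lie mostly below 0, with medians of -0.33 and -0.48, the other paraspeckle proteins have a median of -0.16, and the other lncRNAs lie on both sides of 0.

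Genes that make or bind the ends of NEAT1 and MALAT1 were lower or did not pass the test. Of 13 such genes (RNase P and related subunits, the tRNA 3′ endonuclease ELAC2 and the triple helix binder METTL16), 12 were tested. None rose and 8 fell, and their median was -0.48 on the log2 scale. Of all genes tested, 28.6% were called lower and 29.2% higher. POP1, the largest protein of RNase P, averaged 50.6 ± 1.31 CPM in TR-107 and 116 ± 7.39 CPM in DMSO (SD, n = 3 each), a 2.29-fold fall (edgeR adjusted p = 9.18e-21). ELAC2 averaged 127 ± 5.14 CPM in TR-107 and 233 ± 3.88 CPM in DMSO, and RPP25, a subunit with low counts, averaged 5.17 ± 1.38 CPM in TR-107 and 12.8 ± 0.89 CPM in DMSO. METTL16 averaged 75.2 ± 3.53 CPM in TR-107 and 101 ± 1.72 CPM in DMSO. RPP21 had 0 counts in all 6 libraries.

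The proteins of the nuclear speckle, the body that holds MALAT1, fell in most cases. Of 29 genes, 28 were tested, and 22 fell, 1 rose and 5 did not pass the test (median log2 fold change -0.33), beside 28.6% of all genes called lower and 29.2% higher. The largest falls were in serine- and arginine-rich splicing factors. SRSF2 averaged 209.7 ± 3.58 CPM in TR-107 and 393 ± 12.4 CPM in DMSO, SRSF7 averaged 108 ± 1.04 CPM in TR-107 and 201 ± 3.68 CPM in DMSO, and SRSF1 averaged 375 ± 9.7 CPM in TR-107 and 649 ± 1.85 CPM in DMSO (SD, n = 3 each). CLK1, a kinase that phosphorylates these factors, was the gene called higher, at 30.7 ± 4.73 CPM in TR-107 and 25.3 ± 1.43 CPM in DMSO, but its groups overlapped and the call was lost with library size alone, with DESeq2, and without TR-107 replicate 1 or 2 or DMSO replicate 3. CLK2 had 0 counts in all 6 libraries.

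Of 6 transcription factors reported to act on NEAT1 in human cells, or their partners, 5 rose and 0 fell (median log2 fold change 0.31), with 29.2% of all genes tested called higher. ATF2, a stress-responsive factor, averaged 42.8 ± 2.92 CPM in TR-107 and 29.4 ± 0.472 CPM in DMSO (SD, n = 3 each; edgeR adjusted p = 4.2e-07). EPAS1, which encodes the hypoxia factor HIF-2α, averaged 80.2 ± 3.06 CPM in TR-107 and 59.9 ± 5.99 CPM in DMSO (adjusted p = 5.61e-07). The heat shock factor HSF1 and the HIF partner ARNT had log2 fold changes of 0.17 and 0.21, and the ARNT call was lost with library size alone and without DMSO replicate 3. HIF1A averaged 124 ± 8.5 CPM in TR-107 and 133 ± 6.34 CPM in DMSO and did not pass the test (adjusted p = 0.0977), although it was called lower with library size alone and without TR-107 replicate 3 or DMSO replicate 2. These are mRNA levels, and the activity of the factors was not measured.

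Among the promoters listed in RefSeq's table for GRCh38.p14 (250 bases before to 50 after each start), those of MALAT1 (2 starts), NONO, PSPC1 and RBM14 were searched on both strands for motifs that such factors bind. The promoters of NEAT1 and SFPQ were not analysed here. ACGTG, the hypoxia response core, was in none of the 5 windows and in 21.4% of 35116 promoters. The heat shock patterns GAANNTTC and TTCNNGAA were also in none of the 5, and in 6.77% and 7.74% of all promoters. The cyclic AMP response element TGACGTCA (1.85% of all promoters) and the ATF4 and CHOP core TGATGNAA (3.62%) had no match either. These letters are not in these windows, which says nothing of the factors. The window at the first MALAT1 start is shown as that of the non-coding RNA among them, with the first transcribed base in capitals.
MALAT1 promoter, chr11:65497488-65497787, plus strand: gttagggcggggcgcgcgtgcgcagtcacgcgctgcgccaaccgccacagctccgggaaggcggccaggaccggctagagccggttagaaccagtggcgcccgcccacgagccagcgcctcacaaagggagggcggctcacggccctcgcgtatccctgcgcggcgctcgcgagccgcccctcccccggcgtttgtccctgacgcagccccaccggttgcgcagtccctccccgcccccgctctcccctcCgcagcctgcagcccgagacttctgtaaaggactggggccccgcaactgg

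NEAT1 and MALAT1 were not the only long non-coding RNAs that rose. Of 753 lncRNA genes tested, 35.1% were called, 29.5% higher and 5.58% lower, with a median log2 fold change of 0.37, whereas 60.6% of 12459 protein-coding genes were called, 29.6% higher and 31% lower, with a median of 0.00. Of 18 lncRNAs with a mean of at least 50 CPM, 14 were higher and 3 lower, and both NEAT1 and MALAT1 were among the 14. Without TR-107 replicate 1 the log2 fold changes were 1.08 for NEAT1 and 0.80 for MALAT1, so their order changed without that library. The highest fold changes of the 18 were those of GAS5 (291 CPM in TR-107 and 82.8 CPM in DMSO) and ZFAS1 (253 CPM in TR-107 and 73.4 CPM in DMSO). In a list of 22 well-known lncRNAs, 14 were tested, and 5 rose, 3 fell and 6 did not pass the test (median 0.07, beside 29.5% of lncRNA genes higher and 5.58% lower), with 5 lower calls when TR-107 replicate 1 was left out. NORAD, which binds Pumilio proteins, averaged 619.7 ± 7.21 CPM in TR-107 and 299 ± 6.1 CPM in DMSO (SD, n = 3 each), TUG1 averaged 146 ± 5.19 CPM in TR-107 and 89.5 ± 5.62 CPM in DMSO, and CYTOR averaged 16.3 ± 0.974 CPM in TR-107 and 11.4 ± 1.6 CPM in DMSO. MIR17HG, DANCR and UCA1 fell, with log2 fold changes of -0.67, -0.55 and -0.32.

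**Figure D4:**
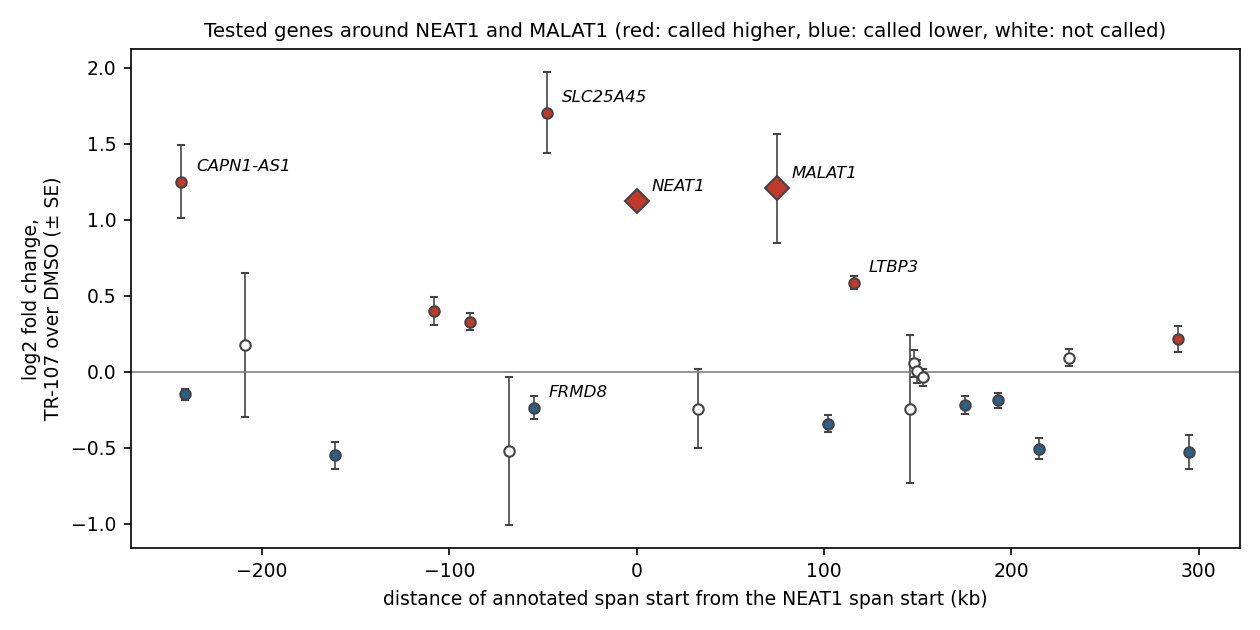
Log2 fold change, TR-107 over DMSO, of the tested genes around NEAT1 and MALAT1 on chromosome 11, by distance of the gene's start from the start of NEAT1 in kb, with standard errors. NEAT1 and MALAT1 lie at 1.12 and 1.21, FRMD8 lies at -0.24, and the 22 neighbours have a median of -0.09.

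Genes around NEAT1 and MALAT1 were called in either direction. NEAT1 ends 52.2 kb before MALAT1 starts. Of 41 annotated genes starting within 250 kb of either, 24 were tested, and of the 22 neighbours among them 6 rose, 8 fell and 8 did not pass the test (median log2 fold change -0.09). These shares are near those of all genes tested, of which 29.2% were called higher and 28.6% lower. FRMD8, which ends 9.27 kb before NEAT1, averaged 52.4 CPM in TR-107 and 61.7 CPM in DMSO (edgeR adjusted p = 0.0082), a call lost without TR-107 replicate 2 or DMSO replicate 2. The pseudogene FAUP4, between NEAT1 and MALAT1, averaged 3.23 CPM in TR-107 and 3.83 CPM in DMSO and did not pass the test (adjusted p = 0.447). SLC25A45, a gene of the mitochondrial carrier family that lies inside the span of FRMD8, had the highest fitted log2 fold change of the window (1.71), with 6.28 CPM in TR-107 and 1.93 CPM in DMSO.

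The genes whose pattern over the 6 libraries was most like that of NEAT1, by the mean absolute difference of centred log2 CPM among 10549 genes, were S100A11 (0.0399), PDK1 (0.0461) and LOC155060 (0.0468). S100A11, a calcium-binding protein, had 206, 202 and 192 CPM in TR-107 replicates 1, 2 and 3, against 90.7, 86.7 and 85 CPM in DMSO replicates 1, 2 and 3. The nearest to MALAT1 were further off: DNAH1 (0.17), HEMK1 (0.18) and DOCK3 (0.182). DNAH1, a dynein heavy chain, had 12.8, 7.89 and 7.88 CPM in TR-107 replicates 1, 2 and 3, against 4.71, 4.81 and 3.89 CPM in DMSO replicates 1, 2 and 3, so it too was highest in TR-107 replicate 1.

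The fit was repeated with other scaling, filters and tests and without each library in turn. Of the 6 genes, MALAT1 was the one that lost its call under some of these settings, and all 6 kept their direction under all of them.

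**Figure D5:**
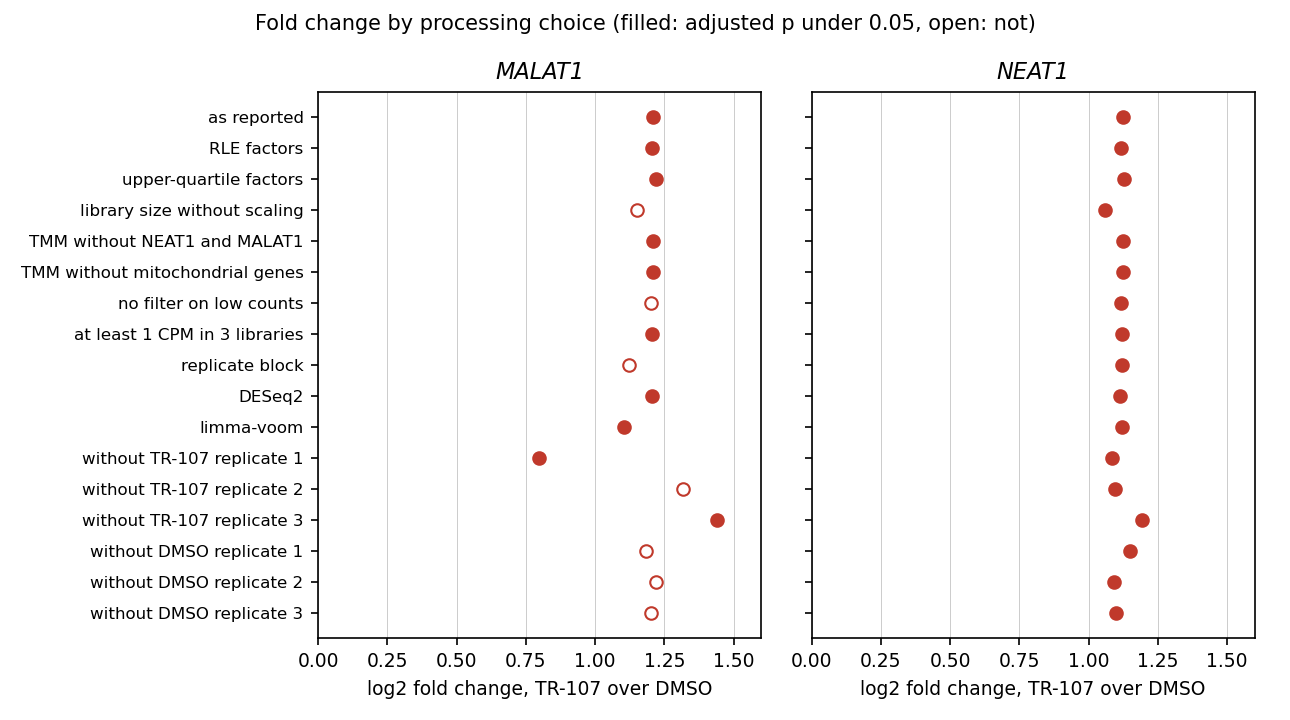
Log2 fold change, TR-107 over DMSO, of MALAT1 (left) and NEAT1 (right) as reported and under each of 16 alternative fits (1 row per fit), with filled points where the adjusted p was under 0.05 and open points where it was not. The points of NEAT1 are all filled and lie between 1.06 and 1.19, and those of MALAT1 run from 0.80 to 1.44 with 7 open.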

How the data were processed

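RNA of 6 HCT116 libraries was enriched by poly(A) and sequenced, per the labels' protocols. The deposited values are raw counts per gene, made by the authors with FastQC, Trimmomatic, HISAT2 and featureCounts on hg38, per the submitters' processing notes. For versions, annotation, strand and multi-mapping, the sources used here give nothing. Of 28395 gene IDs, 27745 matched a symbol in RefSeq's table of GRCh38.p14, and the 650 others stayed in all fits.

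All counts were tested with edgeR 4.0.16 (R 4.3.3): TMM scaling, filterByExpr, a robust quasi-likelihood fit on group alone and Benjamini-Hochberg adjustment over 13767 genes at 0.05. CPM used TMM-scaled sizes, and log2 CPM a prior count of 2. Within-library ratios were compared by exact two-sided permutation. The common biological coefficient of variation was 0.0739, and no 2 replicates agreed within sampling noise (chi-square per degree of freedom of 3.92 to 6.05). On simulated counts for TR-107 against DMSO with 13550 genes tested, 90% of 1.5-fold and 100% of 2-fold rises were called. So were 80% of falls to 0.667, 97.5% of falls to 0.5 and 0.0599% of unchanged genes. Each fold change was given to 40 genes averaging over 5 CPM, and 13350 genes were unchanged. In the data themselves 57.8% of genes were called, so these rates need not hold there.

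Alternatives were RLE and upper-quartile factors, library size alone, TMM without NEAT1 and MALAT1 or without mitochondrial genes, other filters, DESeq2 1.42.0, limma-voom (limma 3.58.1), a block for the replicate number, and each library left out. For the ratios, they were each library left out, the block, shares without mitochondrial genes and an offset of 0.5.

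The genes and lists were chosen with earlier results of these data known. Named are the 6 genes, all assembly proteins and regulators of NEAT1, from each other list up to 3 called genes per direction with the largest change and a mean of at least 5 CPM, the nearest genes of the locus and the 3 genes most alike to NEAT1 and to MALAT1. Named after their values were seen were NUDT21, CPSF6, CPSF7, METTL16, GAS5, ZFAS1, SLC25A45, FAUP4, PARN and FAM83H. The untested genes and the RNAs without a poly(A) tail were named in the same way. Some genes that this rule names are not reported here.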

Additional observations from a re-analysis of the deposited data

How the results depend on the processing

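Under 16 alternative fits, NEAT1 (log2 fold change 1.06 to 1.19), SFPQ (-0.72 to -0.64), NONO (-0.22 to -0.15, edgeR adjusted p at most 0.00666), PSPC1 (-0.83 to -0.72) and RBM14 (-1.32 to -1.18) kept their direction and their call. MALAT1 kept its direction in all 16 and its call in 9, with adjusted p from 1.32e-06 (limma-voom) to 0.134. Its call was lost with library size alone (1.15, edgeR adjusted p = 0.056), with no filter on low counts (1.20, adjusted p = 0.0706) and, leaving out 1 library each, in 4 of 6 cases (range 0.80 to 1.44). The cause was not tested. DESeq2 gave MALAT1 an adjusted p of 0.00319. Genes called numbered 7323 to 8021, against 7956 as reported, and with library size alone 43.4% of calls were higher, against 50.5%.

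The replicate numbers were checked as pairs: the deviations of same-numbered libraries correlated at -0.0311, -0.0185 and 0.0486. Over all genes no pairing was seen, but this does not establish that same-numbered cultures were handled separately. With the replicate block 7918 genes were called, and MALAT1 had a log2 fold change of 1.12 (edgeR adjusted p = 0.118).

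The TR-107 minus DMSO difference of the log2 NEAT1 to MALAT1 ratio changed sign without TR-107 replicate 1 (0.29) and without DMSO replicate 1 (0.05). That difference ranged from -0.19 to 0.29 when 1 library was left out. The difference in the MALAT1 share of counts ranged from 0.0123 to 0.0303 percentage points. RN7SK was called lower without TR-107 replicate 1 (-0.67) and changed sign without TR-107 replicate 2 (0.18) and without DMSO replicate 2 (0.14). Of the values for other named genes under these settings, 731 kept direction and call, 14 lost the call, 5 gained it and 2 changed sign. HNRNPH3, CLK1, ARNT and FRMD8 lost theirs under some settings. HIF1A was called lower with library size alone (-0.17) and without TR-107 replicate 3 or DMSO replicate 2 (-0.15 and -0.14), and RMRP without TR-107 replicate 3. Depth limits the genes with few counts, such as RPP25 and FAUP4.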

Other observations

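Above MALAT1 in the order of genes that were high in TR-107 replicate 1 relative to the other 2 TR-107 libraries stood 9 genes. The highest was PARN, which encodes a nuclease that shortens poly(A) tails, with 8.12, 6.41 and 0.606 CPM in TR-107 replicates 1, 2 and 3, against 10.6, 12.1 and 0.414 CPM in DMSO replicates 1, 2 and 3. PARN was thus low in replicate 3 of both groups. FAM83H had 41.4, 26.4 and 7.04 CPM in TR-107 replicates 1, 2 and 3, against 11.6, 25 and 10 CPM in DMSO replicates 1, 2 and 3, so it varied within DMSO as well. In DMSO, by comparison, the 3 MALAT1 values lay between 179 and 188 CPM.

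The CPM per kb of NEAT1 over all exons and of PSPC1 mRNA overlapped in TR-107 (7.73 to 9.05 for NEAT1 and 8.78 to 9.69 for PSPC1). They did not overlap in DMSO (3.81 to 4.13 for NEAT1 and 15.2 to 17 for PSPC1). This depends on the length used for NEAT1. Over the 3740 bases of the short transcripts, NEAT1 would have 47.1 to 55.1 in TR-107 and 23.2 to 25.2 in DMSO, above PSPC1 in both groups.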
